A study of Homo sapiens with 12 samples.

Results

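The genes described here are nocturnin (NOCT) and 9 genes of the circadian clock: CRY1, CRY2, PER2, PER3, BHLHE40, BHLHE41, NR1D2, DBP and CLOCK. They were taken as every probe set whose annotated symbol is 1 of these 10 names. That gave 24 probe sets, for 10 of the 19775 genes that the array names by a probe set of a single gene. These genes were selected on these same arrays, with the contrasts between Nnm and control and between the times already known. Their levels and differences are therefore given as a description, with whether each passed the threshold of the whole-array fit, and without p-values.

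The samples were HK-2 cells, an immortalized line of human renal proximal tubular epithelium. They formed 4 groups of 3 arrays: low dose Nnm for 24 h, vehicle control for 24 h, low dose Nnm for 48 h and vehicle control for 48 h. The labels do not spell out Nnm, its dose in figures or the vehicle, and call the 3 arrays of a group biological replicates. All 4 groups grew in a medium with EGF, hydrocortisone, insulin, transferrin and selenite, and treatment began near confluency, a day after seeding. HK-2 is 1 established line, so the replicates share a genetic background. RNA was measured on Affymetrix arrays, and values are log2 expression after GCRMA, a method that subtracts a background estimated from probe sequence and scales arrays to each other. The study set out to find expression signatures of toxicity in these cells.

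The circadian clock is a feedback loop of transcription that runs in most cells of the body, kidney cells included. CLOCK pairs with BMAL1 at E-box sequences and switches on the PER and CRY genes, whose proteins come back to repress the pair. The REV-ERB receptors, of which NR1D2 encodes the beta form, repress the BMAL1 gene. BHLHE40 and BHLHE41 compete at E-boxes, and DBP carries the rhythm to genes with D-box sequences. NOCT encodes nocturnin, a protein of the deadenylase family whose mRNA is strongly rhythmic in many tissues and which removes a phosphate from NADPH. Glucocorticoids, serum and insulin can reset the clock of cultured cells. A single harvest at 24 h and a single harvest at 48 h do not sample a daily rhythm, and its phase or amplitude was not measured here.

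The pieces of promoter below are shown because, of the 14 upstream windows of the 10 genes, they are the 4 that held an E-box or a D-box. All 10 genes matched RefSeq, and each window holds the 250 bases before an annotated start on GRCh38.p14, 5′ to 3′ on the strand of the gene, with the motif in capitals. The E-box searched was CACGTG and the D-box was TTATGTAA or TTACGTAA, each on both strands, and no 2 of these motifs overlap in the 4 windows.
BHLHE40, chr3:4979187-4979436, plus strand: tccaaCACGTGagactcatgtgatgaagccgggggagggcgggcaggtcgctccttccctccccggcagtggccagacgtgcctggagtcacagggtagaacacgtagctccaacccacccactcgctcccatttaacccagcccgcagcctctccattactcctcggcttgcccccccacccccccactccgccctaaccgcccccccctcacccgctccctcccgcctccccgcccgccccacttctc
BHLHE41, chr12:26125038-26125287, minus strand: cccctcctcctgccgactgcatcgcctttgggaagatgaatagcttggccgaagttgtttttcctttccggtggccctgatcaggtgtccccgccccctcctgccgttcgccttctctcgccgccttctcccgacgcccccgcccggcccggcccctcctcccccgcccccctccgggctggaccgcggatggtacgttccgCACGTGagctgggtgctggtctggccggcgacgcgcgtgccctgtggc
NR1D2, chr3:23945871-23946120, plus strand: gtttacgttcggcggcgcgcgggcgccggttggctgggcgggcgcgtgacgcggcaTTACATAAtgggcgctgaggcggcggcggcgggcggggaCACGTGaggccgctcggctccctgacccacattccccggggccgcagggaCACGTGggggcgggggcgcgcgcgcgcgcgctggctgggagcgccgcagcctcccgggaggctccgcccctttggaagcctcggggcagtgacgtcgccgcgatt
PER3, chr1:7784041-7784290, plus strand: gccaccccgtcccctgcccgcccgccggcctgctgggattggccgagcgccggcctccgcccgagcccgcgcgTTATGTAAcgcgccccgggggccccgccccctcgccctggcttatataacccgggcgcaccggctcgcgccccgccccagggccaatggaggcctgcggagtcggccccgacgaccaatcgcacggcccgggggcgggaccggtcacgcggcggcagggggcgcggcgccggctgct
The E-box began 245 bases before the start of BHLHE40, 48 bases before that of BHLHE41, and 155 and 105 bases before the second annotated start of NR1D2. The D-box began 177 bases before the first annotated start of PER3, and 194 bases before the second start of NR1D2, where it reads TTACATAA because it lies on the other strand. The E-box was in 6.34% of 35116 such windows over all genes, and the D-box in 0.94% of them. The nuclear receptor sequence AGGTCA, searched in the same way, was in 12.1% of all windows and in both windows of CRY2. The cyclic AMP element TGACGTCA was in 1.65% of all windows and in none of these genes. The glucocorticoid element, in its perfect palindromic form, was in 0.00285% of all windows and in none of these genes. None of the 5 motifs was in the windows of NOCT, PER2, CRY1, DBP and CLOCK, which says only that these letters are not there. A match is a description of the letters, and binding was not measured.

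A gene was tested where a probe set was above a log2 value of 4, about the background level, on at least 3 arrays, and each gene was represented by its brightest probe set. That left 10907 genes. All 10 genes described here were among them, with 16 of their 24 probe sets above the floor and 8 below it. The first principal component over all tested genes took 50.3% of the variance. On it the 2 Nnm arrays of replicate 2 lay between -3.28 and -1.55, the other 4 Nnm arrays between -43.2 and -31.2, and the 6 control arrays between 18.6 and 34.4. The 5′ minus 3′ signal of ACTB, a sign of how RNA or its labelling held up, was between -1.17 and -1.09 on the 4 arrays of replicate 2 and between -0.863 and -0.736 on the other 8. Of 12 proximal tubule markers only DPP4 could be tested, and the other 11 reached at most 2.11 to 3.83. All 6 general epithelial markers were tested, as were 3 of 5 fibroblast markers (DCN, LUM and COL1A1) and the endothelial PECAM1, 1 of 4, while none of 3 leukocyte markers was. DPP4 averaged 12.07 ± 0.29 in Nnm cells and 11.31 ± 0.32 in control cells at 24 h, and 12.90 ± 0.06 and 11.71 ± 0.23 at 48 h (SD, n = 3 each). DPP4 passed in limma at both times (adjusted p = 0.022 and 0.0066). COL1A1 averaged 7.53 ± 0.28 in Nnm cells and 8.06 ± 0.15 in control cells at 48 h (SD, n = 3 each), a difference of -0.53 (limma adjusted p = 0.049). No other marker tested passed between Nnm and control cells. The part of the markers in the results below was not tested. In bulk samples, a loss of cells of some kind and less RNA per cell cannot be told apart.

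At 24 h, 5 of the 10 genes passed the threshold between Nnm and control cells, an adjusted p under 0.05 in limma with Benjamini-Hochberg adjustment over all 10907 genes. NOCT, CRY1 and BHLHE40 were lower in Nnm cells and NR1D2 and DBP were higher. At 48 h CRY1, BHLHE40 and NR1D2 passed, each in the direction it had at 24 h, while NOCT and DBP did not. Of all genes tested, 19.4% passed at 24 h and 13.8% at 48 h, and since these contrasts helped to choose the genes, nothing is read from their counts. The median log2 difference of the 10 genes was -0.23 at 24 h and -0.09 at 48 h, beside 0.01 and 0.02 over all genes tested.

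**Figure D1:**
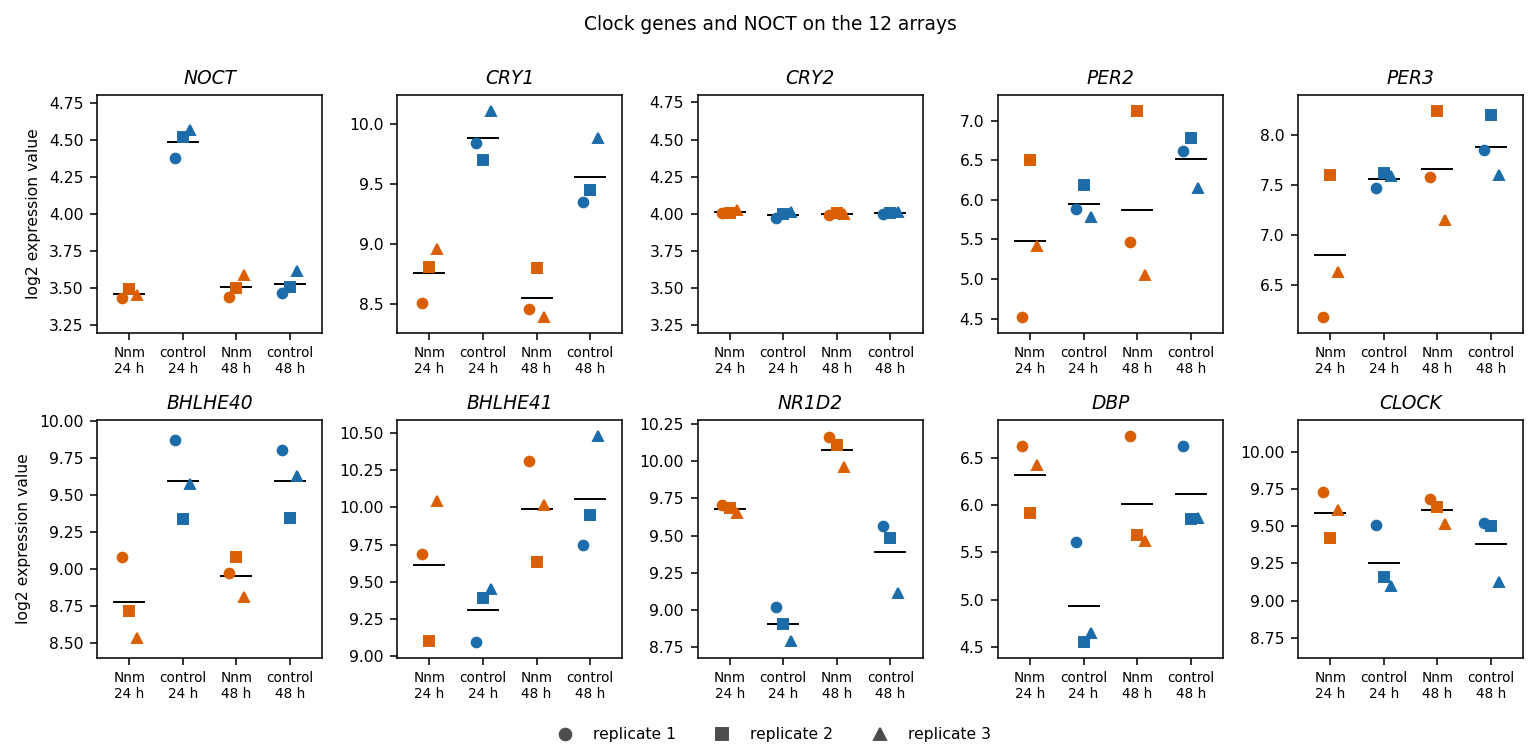
Log2 expression (y axis, 1 panel per gene, each with its own range) of the 10 genes on the 12 arrays, with Nnm in orange, control in blue, symbols for replicates and bars for group means. NOCT is high and DBP is low on the 3 control arrays of 24 h, CRY1 and BHLHE40 are lower and NR1D2 higher on Nnm arrays at both times, and the Nnm replicate 2 arrays are the highest of their groups in PER2 and PER3.

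NOCT stood out by its level in a single group. It read 3.43, 3.49 and 3.46 on the Nnm arrays of 24 h, against 4.38, 4.52 and 4.57 on the control arrays of 24 h. At 48 h it read 3.44, 3.50 and 3.59 on Nnm arrays and 3.47, 3.51 and 3.62 on control arrays. The 3 control arrays of 24 h were above 4 and the other 9 arrays were not, so the gene entered the test only through that group. The group means were 3.46 ± 0.03 in Nnm cells and 4.49 ± 0.10 in control cells at 24 h, and 3.51 ± 0.07 and 3.53 ± 0.08 at 48 h (SD, n = 3 each). In order of level, control cells at 24 h came first, and control cells at 48 h, Nnm cells at 48 h and Nnm cells at 24 h followed with overlapping arrays.

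The log2 difference of NOCT between Nnm and control cells was -1.03 (SE 0.09) at 24 h and -0.02 (SE 0.09) at 48 h. Matched by replicate number, the 24 h differences were -0.95, -1.03 and -1.12, so the arrays of a group differed little. The Nnm readings lie below the floor, so no ratio is given. A second probe set of NOCT read between 2.26 and 2.58 on all 12 arrays, below the floor, and differed by -0.10 at 24 h.

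Of the CRY genes, whose proteins repress the CLOCK and BMAL1 pair, CRY1 was lower with Nnm at both times. At 24 h CRY1 read 8.50, 8.81 and 8.96 on Nnm arrays, against 9.85, 9.70 and 10.11 on control arrays. At 48 h CRY1 read 8.46, 8.80 and 8.39 on Nnm arrays, against 9.35, 9.45 and 9.88 on control arrays. The groups did not overlap at either time. Its log2 difference was -1.13 (SE 0.18) at 24 h and -1.02 (SE 0.18) at 48 h, and it was lower in 3 of 3 matched pairs at each time. Both differences remained past the threshold when any of the 12 arrays was left out.

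CRY2 gave no usable measurement. Its single probe set lay between 3.97 and 4.02 on all 12 arrays, at the floor of the test, and passed the filter with 7 arrays just above 4. Its log2 difference was 0.02 at 24 h and -0.01 at 48 h (SE 0.08 each). Whether CRY2 mRNA differed between the groups was not detectable at this signal.

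The PER genes, partners of the CRY proteins in repression, varied between the Nnm replicates. PER2 read 4.52, 6.50 and 5.42 on Nnm arrays of 24 h, against 5.88, 6.19 and 5.79 on control arrays, and 5.46, 7.13 and 5.04 on Nnm arrays of 48 h, against 6.62, 6.79 and 6.15 on control arrays. On Nnm replicates 1 and 3 it was below every control array of the same time, and on Nnm replicate 2 it was above every one. The SD among Nnm arrays was 0.99 at 24 h and 1.10 at 48 h, against 0.21 and 0.33 among control arrays. The log2 difference, -0.47 (SE 0.55) at 24 h and -0.64 (SE 0.55) at 48 h, did not pass. Without both Nnm replicate 2 arrays it was -0.98 at 24 h and -1.27 at 48 h, and passed at both times, where 34% of all genes passed at 24 h and 28.9% at 48 h. Without Nnm replicate 1 of 24 h the 24 h difference was 0.01, and without Nnm replicate 3 of 48 h the 48 h difference was -0.22, neither past the threshold. The 2 Nnm arrays of replicate 2 are the ones between the other Nnm arrays and the controls on the first principal component. The low ACTB 5′ signal is shared by all 4 arrays of replicate 2. The part of either in the PER values was not tested.

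PER3 had the same split at 24 h. It read 6.18, 7.60 and 6.63 on Nnm arrays, against 7.47, 7.61 and 7.59 on control arrays, so Nnm replicates 1 and 3 lay below all controls and replicate 2 among them. The 48 h values of PER3 were 7.58, 8.24 and 7.15 on Nnm arrays, against 7.85, 8.20 and 7.60 on control arrays. Its log2 difference was -0.75 (SE 0.35) at 24 h and -0.23 (SE 0.35) at 48 h, and neither passed. Without both Nnm replicate 2 arrays it was -1.15 at 24 h, past the threshold, and -0.52 at 48 h, not past it. Without Nnm replicate 1 of 24 h the 24 h difference was -0.44, and without Nnm replicate 3 of 48 h the 48 h difference was 0.03, neither past the threshold. Blocking on replicate number brought the 24 h difference of -0.75 past the threshold, with 38.8% of all genes. The other 3 probe sets of PER3 were dim, at 2.54 to 4.58, and the other probe set of PER2 read 2.10 to 2.12.

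**Figure D2:**
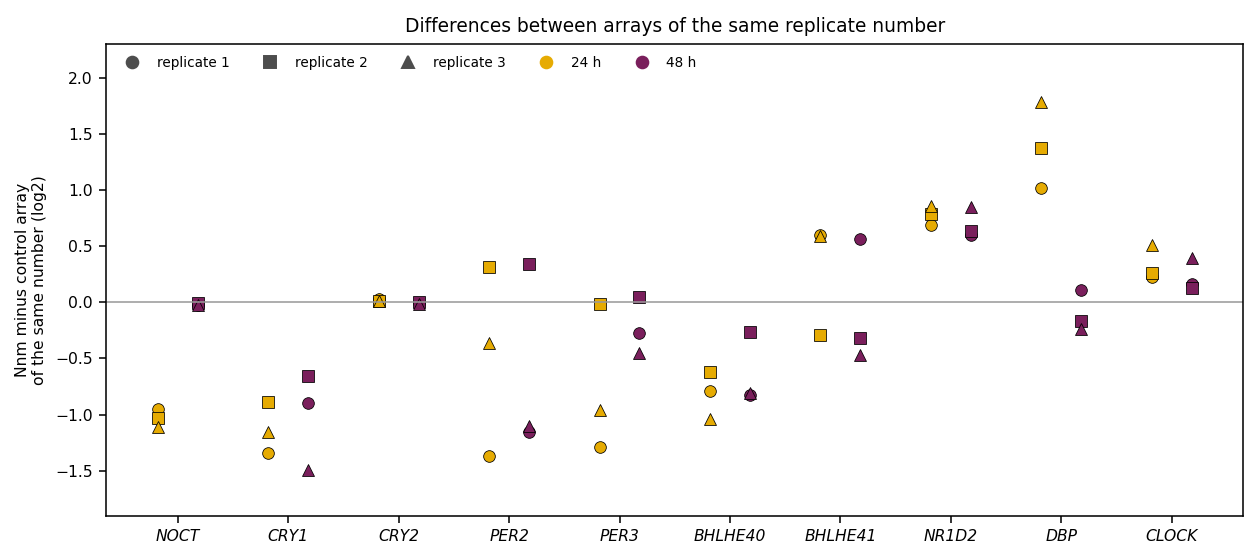
Log2 difference (y axis) between the Nnm and the control array of the same replicate number for the 10 genes (x axis), at 24 h in yellow and 48 h in purple, with a symbol for each replicate. In PER2 and PER3 the squares of replicate 2 lie above the other 2 replicates, while in CRY1, BHLHE40 and NR1D2 all 3 replicates lie on the same side of 0 at both times.

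BHLHE40 (DEC1), a basic helix-loop-helix repressor that binds E-boxes and responds to many stimuli, was lower with Nnm. At 24 h BHLHE40 read 9.08, 8.72 and 8.54 on Nnm arrays, against 9.87, 9.34 and 9.57 on control arrays. The 48 h readings were 8.97, 9.08 and 8.81 on Nnm arrays, against 9.80, 9.35 and 9.62 on control arrays. No Nnm array reached a control array of the same time. The log2 difference was -0.81 (SE 0.18) at 24 h and -0.64 (SE 0.18) at 48 h. A dimmer probe set of the gene gave -1.14 and -0.58. In a fit of all 19832 kept probe sets both probe sets passed at 24 h and neither passed at 48 h. The 24 h call was lost without Nnm replicate 3 (-0.69), control replicate 1 (-0.68) or control replicate 3 (-0.83) of that time. The 48 h call was lost without Nnm replicate 1 (-0.65) or 3 (-0.57) of 48 h, control replicate 1 (-0.53) or 3 (-0.62) of 48 h, or control replicate 3 of 24 h (-0.64). The same call was lost without a filter (-0.64) and when the kept probe sets were averaged (-0.61). With the groups of each time fitted alone, both calls were lost.

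BHLHE41 (DEC2), its close relative, did not follow it. It read 9.69, 9.10 and 10.04 on Nnm arrays of 24 h, against 9.09, 9.39 and 9.45 on control arrays, and 10.32, 9.63 and 10.02 on Nnm arrays of 48 h, against 9.75, 9.95 and 10.48 on control arrays. The groups overlapped at both times. The log2 difference was 0.30 (SE 0.27) at 24 h and -0.07 (SE 0.27) at 48 h. The matched differences at 24 h were 0.60, -0.29 and 0.59. With single arrays left out the 24 h value lay between 0.08 (without Nnm replicate 3) and 0.56 (without Nnm replicate 2), and the 48 h value between -0.24 and 0.14, and none passed. Both dimmer probe sets above the floor gave the same signs, 0.44 and 0.16 at 24 h, and -0.11 and -0.38 at 48 h.

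NR1D2, which encodes the repressing nuclear receptor REV-ERB beta, was higher with Nnm at both times. It read 9.71, 9.69 and 9.65 on Nnm arrays of 24 h, against 9.02, 8.91 and 8.79 on control arrays. NR1D2 at 48 h read 10.16, 10.11 and 9.96 on Nnm arrays, against 9.57, 9.48 and 9.11 on control arrays. The groups did not overlap, and Nnm was higher in 3 of 3 matched pairs at each time. The log2 difference was 0.78 (SE 0.13) at 24 h and 0.69 (SE 0.13) at 48 h. A dimmer probe set of the same gene, from 7.86 to 9.62 over the 12 arrays, gave 0.70 at 24 h and 1.00 at 48 h. In a fit of all 19832 kept probe sets it passed at 48 h and not at 24 h. The 48 h call was lost without Nnm replicate 1 of 48 h (0.65) and with the groups of 48 h fitted alone (0.69).

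DBP, the activator of genes with D-boxes, differed at 24 h through a low level in control cells. It read 6.62, 5.92 and 6.43 on Nnm arrays of 24 h, against 5.61, 4.55 and 4.65 on control arrays. DBP at 48 h read 6.74, 5.69 and 5.63 on Nnm arrays, against 6.63, 5.86 and 5.86 on control arrays. The arrays did not overlap at 24 h and did at 48 h. The log2 difference was 1.39 (SE 0.37) at 24 h and -0.10 (SE 0.37) at 48 h. The 24 h call was lost when any of 4 arrays of that time was left out: Nnm replicate 1 (1.24), Nnm replicate 3 (1.34), control replicate 2 (1.20) or control replicate 3 (1.25). That call was also lost without a filter and with the groups of 24 h fitted alone (1.39 each). Its other probe set stayed between 3.68 and 3.85.

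CLOCK, the activator that pairs with BMAL1, was bright on all arrays and did not pass at either time. It read 9.73, 9.42 and 9.61 on Nnm arrays of 24 h, against 9.51, 9.16 and 9.10 on control arrays. CLOCK at 48 h read 9.68, 9.63 and 9.52 on Nnm arrays, against 9.52, 9.50 and 9.12 on control arrays. The log2 difference was 0.33 (SE 0.15) at 24 h and 0.23 (SE 0.15) at 48 h, higher in 3 of 3 matched pairs each time. The 24 h difference of 0.33 passed once replicate number was a block, with 38.8% of all genes. The other 2 probe sets above the floor gave 0.02 and 0.18 at 24 h and 0.06 and 0.18 at 48 h.

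Counted by arrays that do not overlap, 5 of the 10 genes stood apart between Nnm and control cells at 24 h, beside 39.8% of all genes tested. At 48 h, 3 of 10 stood apart, beside 36.1%. These are the genes that passed the threshold at each time.

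**Figure D3:**
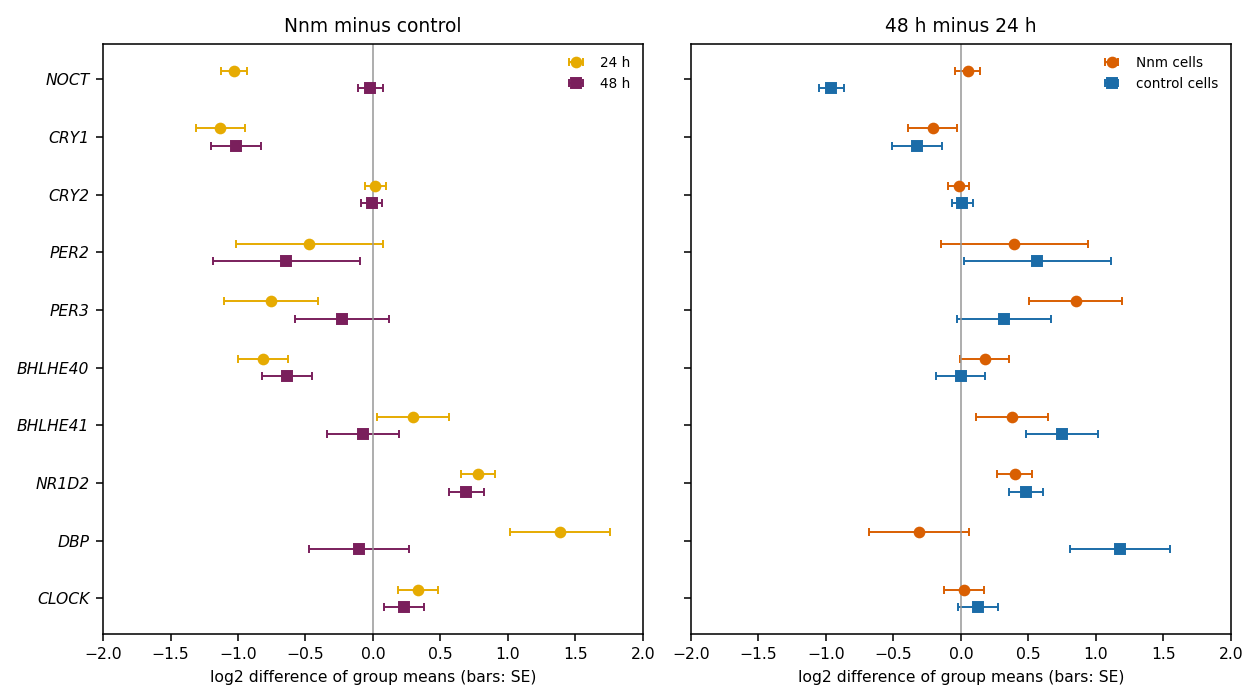
Log2 differences of group means from the whole-array fit (x axis; points are estimates and bars are standard errors) for the 10 genes (rows), Nnm minus control on the left and 48 h minus 24 h on the right. NOCT lies at -1.03 for Nnm at 24 h and at -0.96 for time in control cells, with its other estimates near 0, and DBP shows the opposite pair, at 1.39 and 1.18.

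The same arrays also show how the genes differed between 48 h and 24 h within a treatment. Within Nnm cells none of the 10 genes passed in limma, while 2 had an unadjusted p under 0.05. Of all genes 0.119% passed there, which is 13 genes, and 1176 had an unadjusted p under 0.05. In control cells NOCT was lower at 48 h, with a log2 difference of -0.96 (SE 0.09), and it was the only 1 of the 10 genes to pass. Only its control arrays of 24 h lie above the floor, so nothing is read from this call. Of all genes tested, 0.128% passed in control cells, which is 14 genes. At an unadjusted p under 0.05 there were 4 of the 10 genes and 1711 of all genes in control cells. These contrasts helped to choose the 10 genes, so nothing is read from their counts. The comparison at 24 h and the comparison of times in control cells share the 3 control arrays of 24 h, so both carry the same high NOCT readings and the same low DBP readings.

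In Nnm cells the differences between 48 h and 24 h were 0.05 for NOCT, -0.31 for DBP, 0.40 for NR1D2 and 0.38 for BHLHE41. The dimmer BHLHE41 probe sets above the floor gave 0.21 and -0.09 there, and the dimmer NR1D2 probe set gave 0.54. PER3 differed by 0.85 (SE 0.35) in Nnm cells and was higher in 3 of 3 pairs. PER3 did not pass with all arrays. It passed at 1.25 without the Nnm 24 h array of replicate 2, where 3.56% of all genes passed, against 0.119% with all arrays. NR1D2 and CRY2 had Nnm arrays that did not overlap between the times, 2 of 10 genes beside 12.7% of all genes, and the CRY2 difference was only -0.01.

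In control cells DBP was higher at 48 h by 1.18 (SE 0.37) and NR1D2 by 0.48 (SE 0.13) on the log2 scale, neither past the threshold. Both passed with the replicate number as a block, at the same sizes, with 8.47% of all genes. BHLHE41 differed by 0.75 (SE 0.27) in control cells, and on its brightest probe set the 48 h arrays all lay above the 24 h arrays. Both dimmer BHLHE41 probe sets above the floor overlapped between the times, with differences of 0.76 and 0.46. By brightest probe set, NOCT, DBP, NR1D2 and BHLHE41 had control arrays that did not overlap between the times. These were 4 of the 10 genes, beside 26.3% of all genes, and NOCT was above the floor only at 24 h. On its brightest probe set NR1D2 was higher at 48 h in 3 of 3 matched pairs in each treatment. Its dimmer probe set gave 0.24 in control cells, with arrays that overlapped between the times. On that probe set control replicate 3 was lower at 48 h (7.94) than at 24 h (8.03). Among the rest, CRY1 differed by -0.21 in Nnm cells and -0.32 in control cells, PER2 by 0.40 and 0.57, and CLOCK by 0.02 and 0.13. BHLHE40 differed by 0.18 in Nnm cells and by -0.0017 in control cells.

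The difference between the Nnm effect at 48 h and that at 24 h was largest in size for DBP, at -1.49 (SE 0.52), and for NOCT, at 1.01 (SE 0.13). None of the 10 genes, and 0% of all 10907 genes, passed the threshold in limma for this difference. At an unadjusted p under 0.05 there were 2 of the 10 genes and 698 of all genes. In the fit blocked on replicate number NOCT passed, at 1.01, as 1 of 2 genes of all tested. It passed at 1.03 without the Nnm 24 h array of replicate 2, where 0.156% of all genes passed. NOCT was chosen on these contrasts, and only its control arrays of 24 h lie above the floor. Nothing is read from these calls. For CRY1, BHLHE40, NR1D2 and CLOCK the difference of effects was between -0.10 and 0.18.

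The profile of NOCT over the arrays, with each gene centred on its own mean, was closest to those of NUP155, FGB, CTC1, HMGB3P1 and POP7. The measure was the root mean square difference of the centred log2 values over the 12 arrays. It was 0.18 for NUP155 (a nuclear pore protein) and FGB (the beta chain of fibrinogen), 0.19 for CTC1 (a telomere protein) and the pseudogene HMGB3P1, and 0.20 for POP7 (a subunit of ribonuclease P), against a median of 0.50 over all genes. NUP155 averaged 8.69 ± 0.26 in Nnm cells and 9.58 ± 0.12 in control cells at 24 h, and 8.77 ± 0.02 and 8.97 ± 0.19 at 48 h (SD, n = 3 each). FGB averaged 5.05 ± 0.02 in Nnm cells and 5.67 ± 0.05 in control cells at 24 h, and 4.96 ± 0.07 and 5.11 ± 0.09 at 48 h (SD, n = 3 each). CTC1 averaged 3.44 ± 0.14 in Nnm cells and 4.16 ± 0.09 in control cells at 24 h. At 48 h CTC1 averaged 3.50 ± 0.05 and 3.61 ± 0.07 (SD, n = 3 each), so only its 24 h control mean exceeded 4. Like NOCT, all 5 were highest in control cells at 24 h, which follows from how they were picked. Since NOCT was above the floor only on the control arrays of 24 h, its profile is a raised group over background readings. Nothing is read from the likeness.

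**Figure D4:**
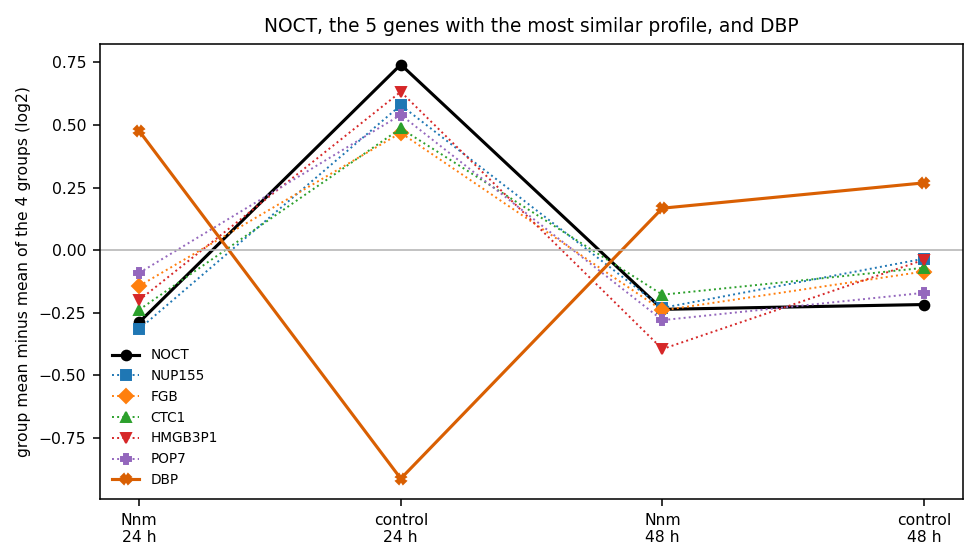
Group means minus the mean of the 4 groups (y axis, log2) for NOCT, the 5 genes with the most similar profile and DBP, in the 4 groups (x axis). NOCT and the 5 genes are highest in control cells at 24 h, where DBP is lowest.

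Of 29 other clock genes and relatives of NOCT, 22 could be tested. At 24 h, 3 rose with Nnm (BTRC, CNOT6L and NPAS2), 2 fell (KLF10 and PDE12) and 17 did not pass. At 48 h BTRC and WEE1 rose and 20 did not pass. The median log2 difference of the 22 genes was 0.04 at 24 h and 0.07 at 48 h. Their shares stand beside the same 19.4% and 13.8% of all genes. In the fit blocked on replicate number, ANGEL2 (0.30) and CSNK1D (0.50) passed as well at 24 h, 7 of 22 in all, where 38.8% of all genes passed. At 48 h the block added ANGEL2 (0.25), KLF10 (0.25), BMAL1 (-0.50) and NAMPT (-0.39), 6 of 22 in all, where 32.2% of all genes passed. Leaving out 1 array at a time gave between 1 and 6 genes at 24 h and between 0 and 4 at 48 h. With the groups fitted alone only BTRC passed at 24 h, where 7.67% of all genes passed. None passed so at 48 h, where 4.71% of all genes did.

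BTRC encodes the ubiquitin ligase part beta-TrCP, which marks PER proteins for breakdown. At 24 h it read 8.39, 8.23 and 8.79 on Nnm arrays, against 7.69, 7.72 and 7.44 on control arrays, and the groups did not overlap. The log2 difference was 0.86 (SE 0.15, limma adjusted p = 0.0085) at 24 h and 0.55 (SE 0.15, adjusted p = 0.040) at 48 h. The 24 h call remained when any of the 12 arrays was left out, and both calls were lost when the kept probe sets of the gene were averaged (0.47 and 0.45). The 48 h call was lost without any 1 of 7 arrays: Nnm replicate 1 or 3 or any control of 48 h, or control replicate 1 or 2 of 24 h, with values between 0.46 and 0.57.

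NPAS2, a relative of CLOCK that also pairs with BMAL1, averaged 7.08 ± 0.28 in Nnm cells and 6.51 ± 0.28 in control cells at 24 h (SD, n = 3 each), a difference of 0.57 (limma adjusted p = 0.043). The NPAS2 call was lost when its kept probe sets were averaged (0.32). BMAL1 itself did not pass in the main fit, with -0.04 at 24 h and -0.50 at 48 h (adjusted p = 0.064). At 48 h BMAL1 passed with median centring (-0.55), quantile normalisation (-0.54), array weights (-0.65) or without both Nnm replicate 2 arrays (-0.57). Averaging kept probe sets brought BMAL1 (-0.53), NAMPT (-0.58) and GSK3B (-0.46) past the threshold at 48 h. In these fits between 13.4% and 31.8% of all genes passed. WEE1, a cell cycle kinase and clock output in mouse liver, averaged 10.57 ± 0.31 in Nnm cells and 9.92 ± 0.02 in control cells at 48 h (SD, n = 3 each), a difference of 0.65 (adjusted p = 0.016). KLF10, a zinc finger clock output, averaged 8.70 ± 0.21 in Nnm cells and 9.23 ± 0.26 in control cells at 24 h (SD, n = 3 each), a difference of -0.53 (adjusted p = 0.044).

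Among 5 deadenylase relatives of NOCT, CNOT6L rose at 24 h by 0.46 (SE 0.10, limma adjusted p = 0.017), and PDE12 fell, with a difference of -0.34 (SE 0.10, adjusted p = 0.041). The PDE12 call was lost when its kept probe sets were averaged (-0.42). CNOT6, ANGEL1 and ANGEL2 did not pass at either time in the main fit. ANGEL2 passed at both times when its kept probe sets were averaged (0.37 and 0.38). CNOT6L encodes a catalytic subunit of the CCR4-NOT complex and PDE12 a mitochondrial enzyme that trims poly(A) tails. The calls of NPAS2 and KLF10 were each lost when any of 10 arrays was left out, that of PDE12 with any of 8, and those of CNOT6L with any of 3 and of WEE1 with any of 4. The values then lay between 0.41 and 0.68 for NPAS2, -0.63 and -0.39 for KLF10, and -0.41 and -0.29 for PDE12, and between 0.41 and 0.43 for CNOT6L and 0.54 and 0.66 for WEE1. The D-box factors TEF, HLF and NFIL3, the last a repressor at the sites where DBP activates, did not pass, with values between -0.64 and 0.33 over both times. HLF read 6.85, 8.27 and 6.84 on Nnm arrays of 24 h, against 7.93, 8.12 and 7.82 on control arrays, so Nnm replicates 1 and 3 lay below the controls and replicate 2 above them. Its 24 h difference was -0.64 with all arrays. Without the Nnm 24 h array of replicate 2 it passed at -1.11, where 29.8% of all genes passed. With array weights it passed at -1.02, where 44.6% of all genes passed. RORA, RORB and FBXL21P were below the floor on all arrays, at up to 2.69, 2.92 and 3.06. PER1 and NR1D1 had no probe set assigned to that gene alone, and they and the rest of the list were not analysed here. None of the 22 passed in limma in either comparison of times or in the difference of effects, and 5 (times in Nnm cells), 4 (times in control cells) and 3 (difference of effects) had an unadjusted p under 0.05. Of all 10907 genes, 1176, 1711 and 698 did so in these 3 comparisons. In the fit blocked on replicate number HLF (1.17) passed between the times in Nnm cells, with 2.29% of all genes, and KLF10 (-0.71) and TIMELESS (-0.49) between the times in control cells, with 8.47% of all genes.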

How the data were processed

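Gene expression was measured on 12 Affymetrix arrays, 4 groups of 3. The values are log2 expression made by the authors with GCRMA, per the submitters' processing notes. The log base was taken from the range of the values, and the sources do not say which arrays were normalised together. Total RNA came from each culture, per the labels' protocols. Array number limits the precision.

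Of 54675 probe sets, 62 controls were left out. Platform annotation gave 1 gene to 41091, several to 1801 and none to 11721, and only the first were used. Kept were 19832 probe sets above log2 4 on at least 3 arrays. Each gene was represented by its probe set of highest mean, 10907 genes in all. The 4 group means were fitted together with limma 3.58.1 (R 4.3.3), with adjustment over all genes and a threshold of 0.05. The fit was tested on simulated data. The replicate number was the block of an alternative fit. Arrays of the same number deviated together (correlations of deviations from group means 0.318 to 0.696, against -0.587 to 0.119 between other numbers), so the numbers pair the arrays. The main fit does not use this pairing.

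The 10 genes, the list of other clock genes and the marker lists were chosen with earlier results of these data known. All 10 genes are named, with the listed others past the threshold and the 5 profiles nearest NOCT; BMAL1, ANGEL2, CSNK1D, NAMPT, HLF, TIMELESS and the further genes of the list were named after their values were seen. Figures were drawn with matplotlib 3.10.9. Motifs were searched in RefSeq promoter windows of GRCh38.p14. Protein sequences were not used here.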

Additional observations from a re-analysis of the deposited data

Results flagged for a closer look

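NOCT was picked out because its 48 h minus 24 h differences ran opposite ways in the treatments. Matched by replicate number they were 0.01, 0.01 and 0.14 in Nnm cells, all above 0, and -0.91, -1.01 and -0.95 in control cells, all below 0. The Nnm effect at 48 h minus that at 24 h was 1.01 on the log2 scale. It did not pass the threshold over all genes in limma, but did in the fit blocked on replicate number. Only the control arrays of 24 h lie above the floor in NOCT, so nothing is read from that call. The Nnm differences of 0.01 were below the SD among Nnm arrays, 0.03 at 24 h and 0.07 at 48 h, and that of 0.14 was above it. All Nnm readings of NOCT lay below the floor.

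CRY2 met the same condition, with a difference of effects of -0.025. Its matched differences between the times were -0.01, -0.003 and -0.03 in Nnm cells and 0.03, 0.004 and 0.001 in control cells. All of its values lie at the floor of the test, within a range of 0.05, and the difference of effects did not pass.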

How the results depend on the processing

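No difference past the threshold in the 10 genes turned its direction under the alternatives run. Over their differences, 1042 alternative values kept their side of the threshold, 17 newly passed it and 21 no longer passed. The number of the 10 genes past the threshold at 24 h was 5. It became 3 (NOCT, CRY1 and NR1D2) when the 2 groups were fitted alone and 3 to 6 when arrays were left out singly. At 48 h it was 3, and became 1 (CRY1) with the groups alone and 1 to 3 with arrays left out. Between the times in Nnm cells it was 0, and 0 to 1 with arrays left out (PER3). Between the times in control cells it was 1, and became 0 with the stricter filter (which drops NOCT and CRY2), 0 with the groups alone and 3 with the replicate block, which took the count over all genes to 924, against 14. For the difference of effects it was 0, and became 1 (NOCT) without a filter, with array weights, with the replicate block and without both Nnm replicate 2 arrays, and 0 to 1 with arrays left out. Without both Nnm replicate 2 arrays PER2 passed at both times and PER3 at 24 h. The replicate block also brought PER3 and CLOCK past the threshold at 24 h, and DBP and NR1D2 between the times in control cells, and it changed no call of the 10 genes at 48 h or between the times in Nnm cells. Array weights brought BHLHE41 (0.67) and PER3 (-0.91) past it at 24 h, where 44.6% of all genes passed. They brought PER2 (-1.10) past it at 48 h, where 31.8% of all genes passed. Over all genes the count at 24 h was 2116, and became 404 to 3248 with arrays left out and 4237 with the block. At 48 h it was 1504, and became 267 to 2403 with arrays left out and 3515 with the block. The causes of these shifts were not tested. Signal near background limits NOCT and CRY2, for which a difference below the floor cannot be read.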
